A study of Mus musculus with 12 samples.

Results

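The genes described here encode the voltage-gated sodium channels, the voltage-gated calcium channels and the hyperpolarization-activated cyclic nucleotide-gated (HCN) channels of the mouse. They were chosen by gene symbol alone, as the rows of the total RNA table named as sodium channel pore (Scn with a final a) or beta subunits (Scn with a final b), calcium channel pore (Cacna1), alpha2delta (Cacna2d), beta (Cacnb) or gamma (Cacng) subunits, or Hcn genes. That gave 44 of 49489 gene symbols, of which 36 had enough counts to be tested. The 10 sodium channel pore genes, 4 sodium channel beta genes, 10 Cacna1 genes, 4 Cacna2d genes, 4 Cacnb genes, 8 Cacng genes and 4 Hcn genes all had a row.

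The study is described as a pulldown of Gas5, a long noncoding RNA, in primary hippocampal neurons taken from newborn mice and cultured for 16 days. Total RNA was sequenced from 3 libraries called antisense and 3 called sense. The labels give no strain, genotype, treatment or batch. They do not say what the words antisense and sense refer to, which group served as the control, or whether replicates came from separate cultures, so each p-value reflects the spread among these 6 libraries and that spread may be technical.

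Sodium channels open when the membrane depolarises and carry the rising phase of the action potential, and their beta subunits tune gating and anchor the channel. Calcium channels turn depolarisation into calcium entry for transmitter release, dendritic signalling and gene control, with the pore subunit accompanied by alpha2delta and beta subunits that set its traffic to the membrane. HCN channels open on hyperpolarisation and carry a depolarising current that shapes resting potential and dendritic integration in hippocampal pyramidal cells.

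All log2 differences are antisense over sense. Total counts were 5774904 to 6292946 in antisense and 6478567 to 10424020 in sense libraries. Gas5 itself took 9.71% to 14.2% of antisense counts and 32.7% to 57.1% of sense counts. Counts were therefore scaled by TMM, which sets library sizes so that most genes do not differ, and are given as CPM, a count relative to that scaled size. Levels are not corrected for gene length, so differences in CPM are read between libraries for the same gene or the same markers. Where genes are summed, split at 20 CPM or picked as the highest of a subfamily, their lengths were not taken into account. Of the 8 neuronal markers checked, all had counts in every group and none passed the test. Their summed level was 836 to 1071 CPM in antisense and 1065 to 1332 CPM in sense. The 6 astrocyte markers summed to 1119 to 1389 CPM in antisense and 1294 to 1668 CPM in sense, so the neuronal cultures also held glial RNA, and 1 of the 6, Aldh1l1, was lower in antisense (log2 fold change -0.46; edgeR adjusted p = 0.0160), a call lost without antisense replicate 1 or sense replicate 3. In such bulk pulldown libraries fewer cells of a type, less RNA per cell and a difference in what was captured cannot be told apart. The part of cell mixture or of capture in the results was not tested.

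Most channel genes differed little between the groups. Of 36 tested, 2 were higher in antisense (Cacna1f and Cacna2d4), 2 were lower (Scn8a and Cacna1b) and 32 did not pass edgeR's quasi-likelihood test at an adjusted p of 0.05 (Benjamini-Hochberg over all 20049 genes tested). Over all genes tested, 18.2% were higher and 4.35% lower, so channel genes were called higher in a smaller share (5.56%) and lower in a share near that of all genes (5.56%). The median log2 fold change, antisense over sense, was -0.15 over the channel genes and -0.01 over all genes. A negative value was found for 27 of the 36, but the sign of the median depends on the scaling: with library totals alone it was 0.55 over the channel genes and 0.70 over all genes. Antisense and sense libraries were fully separated for 13 channel genes, 10 with antisense below and 3 with antisense above, a share of 36.1% that lay near the 36.6% of all genes. Over all genes antisense lay below for 13.2% and above for 23.4%, against 27.8% and 8.33% of the channel genes. At an unadjusted p under 0.05 there were 11 channel genes in either direction, where 22.2% of all genes were higher and 10.6% lower. Among the 19 channel genes at a mean of 20 CPM or more, a level chosen after the data were seen, 2 were lower and none higher. Antisense lay wholly below for 8 of them (42.1%), against 22.5% of all genes at that level. Their median was -0.20, against -0.11 for all 7457 genes at that level, of which 7.74% were lower and 8.89% higher. In the authors' deposited table, whose fold changes run sense over antisense, the same 4 genes were past an adjusted p of 0.05, with log2 values of -2.95 for Cacna1f, -1.24 for Cacna2d4, 0.38 for Scn8a and 0.28 for Cacna1b. Cacna1b lay at the edge of that threshold (the authors' DESeq adjusted p = 0.0498). The authors' comparison used the same libraries, so it is not separate evidence.

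**Figure D1:**
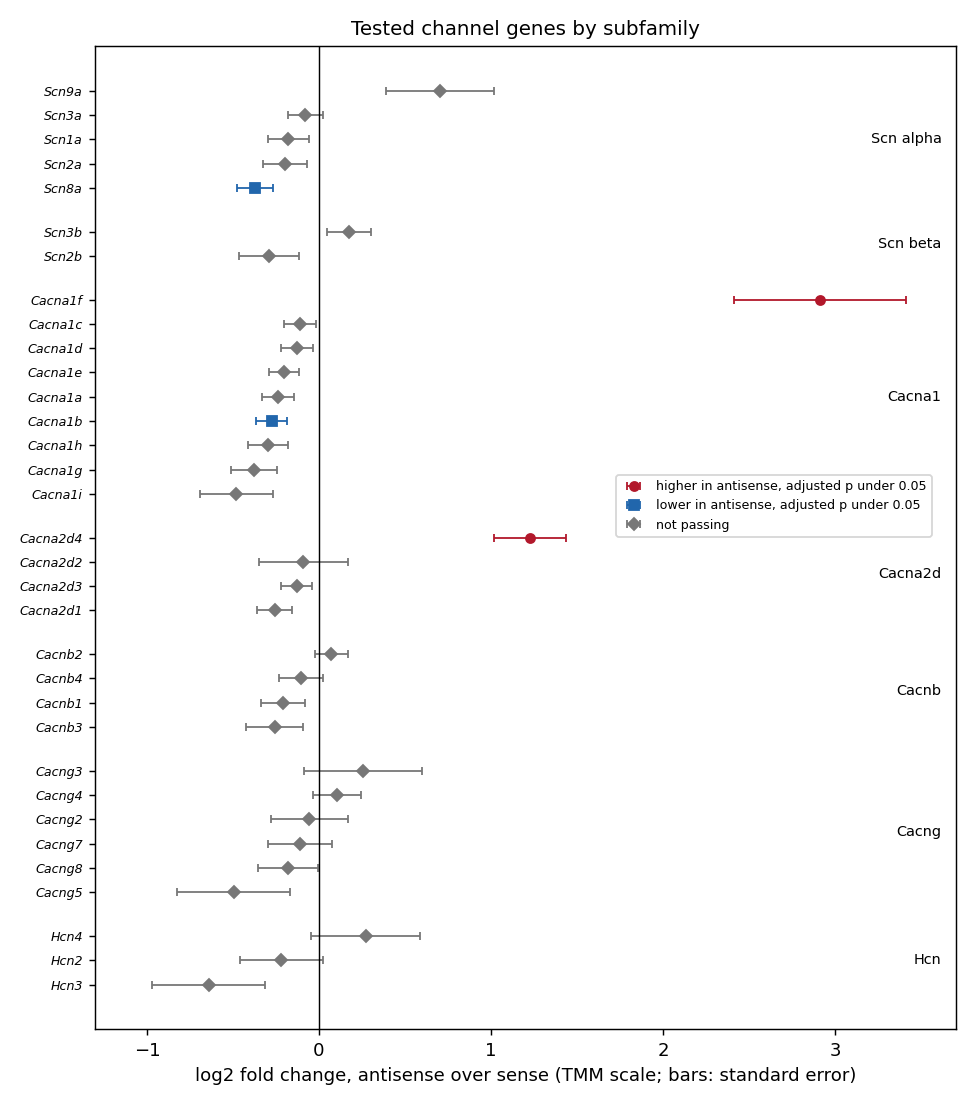
Log2 fold change, antisense over sense on the TMM scale (x axis), of 33 of the 36 channel genes tested (rows, by subfamily); points are edgeR estimates, bars their standard errors, and colours mark genes past an adjusted p of 0.05. Cacna1f at 2.91 and Cacna2d4 at 1.23 stand far to the right, while 25 of the 33 genes lie below 0 on this scaling.

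Among the sodium channel pore genes, Scn8a, which encodes the main channel of the mature axon initial segment and nodes of Ranvier, was lower in antisense. It stood at 77.6, 84.9 and 76.8 CPM in antisense and at 113, 89.0 and 108 CPM in sense. All 3 antisense libraries lay below all 3 sense libraries, with sense replicate 2 close above the highest antisense value. The log2 fold change was -0.37 (SE 0.104; edgeR adjusted p = 0.0160), so sense was 1.30-fold above antisense, whereas with library totals alone the log2 fold change was 0.36 and did not pass. The call was lost without antisense replicate 1 (adjusted p = 0.0658), sense replicate 1 (0.0775) or sense replicate 3 (0.0678).

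The other neuronal pore genes did not pass. Scn2a, which encodes the channel of the immature initial segment and of unmyelinated axons, stood at 128, 141 and 97.5 CPM in antisense and 157, 127 and 135 CPM in sense. The groups overlapped, and the log2 fold change was -0.20 (SE 0.127; edgeR adjusted p = 0.307). Scn1a, the pore gene prominent in fast-spiking interneurons, showed a log2 difference of -0.18 (SE 0.118), and Scn3a, which is most used in the fetal and newborn brain, one of -0.08 (SE 0.100).

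Scn9a, known from peripheral sensory and sympathetic neurons, stood at 3.81, 4.49 and 4.29 CPM in antisense and 3.48, 2.49 and 1.71 CPM in sense. Its groups did not overlap, but it did not pass (log2 fold change 0.70, SE 0.313; edgeR adjusted p = 0.133).

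The remaining pore genes were too low to test. Scn7a, whose product senses sodium in glia, had 23 counts in antisense and 8 in sense, and Scn11a, a gene of pain-sensing neurons, had 7 and 4. Scn10a, another gene of pain-sensing neurons, and Scn4a, the skeletal muscle gene, each had 1 count in antisense and 1 in sense. The 6 peripheral sensory neuron markers checked summed to 8.73 to 10.99 CPM in antisense and 8.54 to 11.4 CPM in sense. Most of that sum was Avil, at a mean of 7.76 CPM in antisense and 7.37 CPM in sense, and the others were too low to test.

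Of the 3 sodium channel beta genes tested none passed in edgeR, at an unadjusted p of 0.05 or in DESeq2 (0 in each). Scn3b stood at 25.5, 27.6 and 27.3 CPM in antisense and 24.5, 20.3 and 26.7 CPM in sense, with overlapping groups (log2 fold change 0.17, SE 0.127; edgeR adjusted p = 0.384). Scn2b showed a log2 difference of -0.29 (SE 0.176). The beta subunits of Scn2b and Scn4b are linked to the pore by a disulfide bond, and that of Scn3b is not. Scn4b was not tested, with 9 counts in antisense and 9 in sense.

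The Cacna1 genes held both a gene far higher in antisense and most of the channel genes whose antisense libraries lay below. Cacna1f, on chromosome X from 7607103 to 7635196 (GRCm38.p6), encodes the pore of the L-type channel of photoreceptor terminals. It had 16, 16 and 26 counts in antisense and 2, 3 and 1 counts in sense, or 2.10, 2.05 and 3.48 CPM against 0.316, 0.467 and 0.171 CPM. Every antisense library lay above every sense library. The log2 fold change was 2.91 (SE 0.499; edgeR adjusted p = 0.000366), a 7.52-fold difference that rests on 58 counts in antisense and 6 in sense, and it passed whichever library was left out.

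No gene of the position table overlaps Cacna1f. Ccdc22, 1682 bases before its start, averaged 8.05 CPM in antisense and 8.96 CPM in sense and did not pass. Syp, the synaptic vesicle gene 3383 bases beyond its end, was lower in antisense (log2 fold change -0.50; edgeR adjusted p = 0.0426), a call lost without antisense replicate 1 or 3 or sense replicate 1 or 3. Of the 5 photoreceptor markers tested, Pde6b was higher (34, 28 and 48 counts in antisense, 0, 0 and 1 in sense) and Gnat1 lower, and the 5 summed to 56.8 to 79.2 CPM in antisense and 55.5 to 78.2 CPM in sense. The 6 microglial markers summed to 23.1 to 25.0 CPM in antisense and 11.5 to 15.0 CPM in sense. Of them P2ry12 and Trem2 were higher, with the Trem2 call lost without antisense replicate 2 (edgeR adjusted p = 0.0539). Csf1r and Cx3cr1 did not pass, and Aif1 and Tmem119 were too low to test. The part of photoreceptors or microglia in the result was not tested.

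The L-type pore genes of the brain, Cacna1c and Cacna1d, which couple calcium entry to gene expression and pacemaking, had overlapping groups. Cacna1c stood at 131 to 149 CPM in antisense and 140 to 163 CPM in sense (log2 fold change -0.11, SE 0.0941), and Cacna1d at 103 to 123 CPM in antisense and 118 to 132 CPM in sense (-0.13, SE 0.0953). Cacna1s, the skeletal muscle L-type gene, had 9 counts in antisense and 6 in sense and was not tested. The 8 skeletal muscle markers summed to 2.81 to 4.996 CPM in antisense and 3.43 to 5.82 CPM in sense. Most of that sum was Ckm, at a mean of 3.01 CPM in antisense and 2.77 CPM in sense, and the others were too low to test.

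All 3 presynaptic pore genes, whose channels trigger transmitter release, had every antisense library below every sense library, as did 13.2% of all genes tested and 22.5% of those at 20 CPM or more, and 1 of the 3 passed. Cacna1b, the N-type pore gene, stood at 88.9, 92.8 and 84.7 CPM in antisense and 105, 105 and 113 CPM in sense. Its log2 fold change was -0.28 (SE 0.0886; edgeR adjusted p = 0.0359), so sense was 1.21-fold above antisense, whereas with library totals alone the log2 fold change was 0.43 and did not pass. The call held without antisense replicate 2 (adjusted p = 0.0375) and was lost without each of the other libraries, at adjusted p-values of 0.0524 without sense replicate 2 to 0.139 without sense replicate 3. It was also lost with a replicate block (0.0754), with Gas5 left out of the table (0.0563) and at a minimum count of 50 (0.0739).

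The other presynaptic genes did not pass. Cacna1a, the P/Q-type pore gene, stood at 179, 178 and 185 CPM in antisense and 203, 198 and 238 CPM in sense (log2 fold change -0.24, SE 0.0939; edgeR adjusted p = 0.0874). Cacna1e, the R-type pore gene, stood at 167, 161 and 153 CPM in antisense and 197, 182 and 175 CPM in sense (-0.20, SE 0.0887; edgeR adjusted p = 0.123). In both, the antisense values were low and close together and the sense values higher, without overlap.

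The T-type pore genes, whose channels open near the resting potential and support burst firing, did not pass. They too had all antisense libraries below all sense libraries, as did 13.2% of all genes tested. Among genes at 20 CPM or more, where Cacna1g and Cacna1h lie, that share was 22.5%. Cacna1g stood at 22.4, 22.6 and 21.8 CPM in antisense and 25.5, 27.0 and 34.6 CPM in sense (log2 fold change -0.38, SE 0.133; edgeR adjusted p = 0.0544). Cacna1h stood at 48.8, 49.4 and 42.6 CPM in antisense and 57.4, 49.9 and 65.9 CPM in sense (-0.30, SE 0.114; edgeR adjusted p = 0.0810). Cacna1i stood at 7.49, 6.81 and 7.37 CPM in antisense and 12.2, 7.63 and 10.4 CPM in sense (-0.48, SE 0.210; edgeR adjusted p = 0.125). The lowest sense value lay close to the antisense values for Cacna1h and Cacna1i. Cacna1g passed without sense replicate 1 (adjusted p = 0.0264), and Cacna1h (0.0280) and Cacna1i (0.0288) passed without sense replicate 2.

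**Figure D2:**
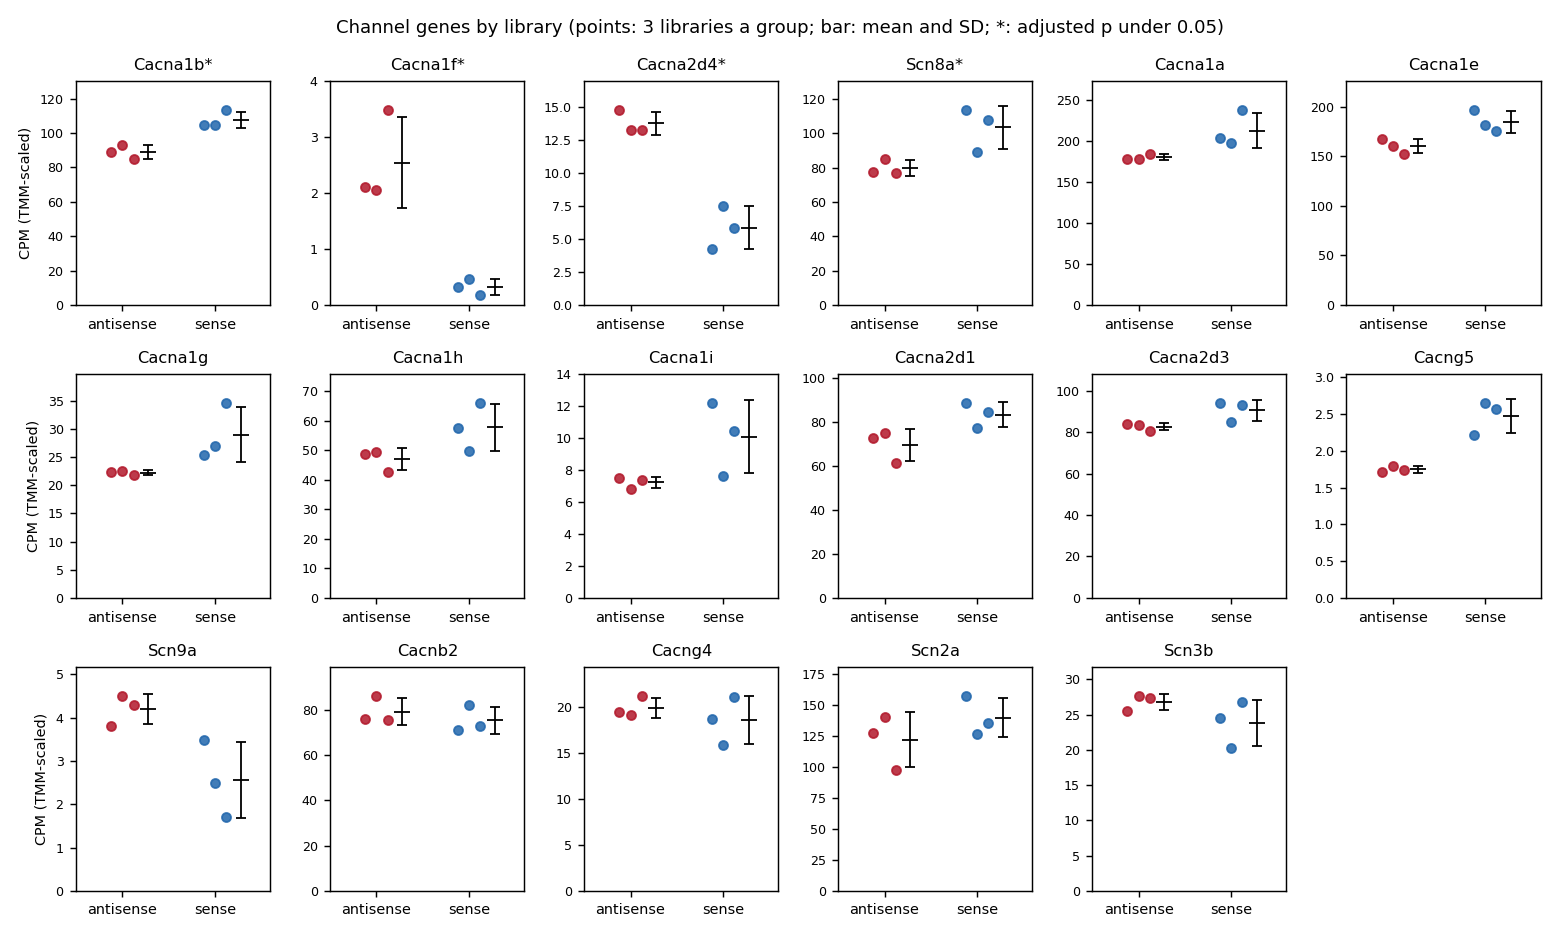
TMM-scaled CPM (y axes, each from 0) by library for 17 channel genes: those that passed (marked *), those whose groups did not overlap, and the gene with the highest CPM of other subfamilies. Points are the 3 antisense and 3 sense libraries and bars the mean and SD; Cacna1f and Cacna2d4 lie far apart between groups, while Scn8a and Cacna1b differ by 1.30-fold and 1.21-fold, with sense above on this scaling and antisense above with library totals alone.

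Among the alpha2delta genes, Cacna2d4 was higher in antisense. The gene, on chromosome 6 from 119236524 to 119352407, encodes the alpha2delta subunit of photoreceptor terminals, the partner there of the Cacna1f channel. It stood at 14.7, 13.2 and 13.3 CPM in antisense and 4.27, 7.48 and 5.82 CPM in sense, with every antisense library above every sense library. The log2 fold change was 1.23 (SE 0.209; edgeR adjusted p = 0.000344), a 2.34-fold difference that passed whichever library was left out. Lrtm2, a leucine-rich repeat gene that lies within the Cacna2d4 span on chromosome 6, averaged 6.99 CPM in antisense and 7.38 CPM in sense and did not pass. Adipor2, 742 bases beyond the end of Cacna2d4, did not pass either (log2 fold change -0.01).

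The other alpha2delta genes did not pass. Cacna2d1, whose product is the binding site of gabapentin, stood at 72.6, 75.1 and 61.4 CPM in antisense and 88.5, 77.1 and 84.4 CPM in sense (log2 fold change -0.26, SE 0.102; edgeR adjusted p = 0.0894). Cacna2d3 stood at 83.9, 83.6 and 80.5 CPM in antisense and 93.9, 84.6 and 93.0 CPM in sense (-0.13, SE 0.0886; edgeR adjusted p = 0.341). Both had all antisense libraries below all sense libraries, by a narrow gap in sense replicate 2, as did 22.5% of all genes at 20 CPM or more. Cacna2d2, at 4.29 to 7.96 CPM in antisense and 5.65 to 6.86 CPM in sense, had overlapping groups (-0.09, SE 0.258).

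None of the 4 Cacnb genes, which encode the cytoplasmic beta subunits, passed in edgeR, at an unadjusted p of 0.05 or in DESeq2 (0 in each). Cacnb2 stood at 76.3, 86.2 and 75.4 CPM in antisense and 71.0, 82.1 and 73.1 CPM in sense, with overlapping groups (log2 fold change 0.07, SE 0.0974; edgeR adjusted p = 0.661). Cacnb1 showed a log2 difference of -0.21 (SE 0.129), Cacnb3 one of -0.26 (SE 0.165) and Cacnb4 one of -0.11 (SE 0.126). The groups overlapped for all 4.

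The Cacng genes encode gamma subunits of muscle calcium channels and, in the brain, the transmembrane AMPA receptor regulatory proteins that bring glutamate receptors to synapses. Of 6 tested, none passed in edgeR, at an unadjusted p of 0.05 or in DESeq2 (0 in each). Cacng4 stood at 19.5, 19.1 and 21.2 CPM in antisense and 18.7, 15.9 and 21.1 CPM in sense (log2 fold change 0.11, SE 0.140; edgeR adjusted p = 0.653). Cacng5 stood at 1.71, 1.80 and 1.74 CPM in antisense and 2.21, 2.65 and 2.57 CPM in sense, without overlap but at 40 and 46 counts in all (-0.50, SE 0.326; edgeR adjusted p = 0.321). Among the AMPA receptor regulators, Cacng2, the stargazin gene, showed a log2 difference of -0.06 (SE 0.225), Cacng3 one of 0.26 (SE 0.345), Cacng7 one of -0.11 (SE 0.187) and Cacng8 one of -0.18 (SE 0.173). The skeletal muscle gene Cacng1 had 10 counts in antisense and 2 in sense, and Cacng6 had 4 and 6, so neither was tested.

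None of the 4 Hcn genes passed in edgeR, at an unadjusted p of 0.05 or in DESeq2 (0 in each). Hcn2, which is broadly expressed in the brain, showed a log2 difference of -0.22 (SE 0.242), Hcn3 one of -0.64 (SE 0.329) and Hcn4, the main gene of the cardiac pacemaker, one of 0.27 (SE 0.315). The groups overlapped for these 3, and of them Hcn3 spread most, at 3.08 to 6.97 CPM in antisense and 5.14 to 11.6 CPM in sense. Of the 6 cardiac muscle markers, Myh6 was higher in antisense (383 counts, against 0 in sense), and the 6 summed to 21.8 to 26.3 CPM in antisense and 6.23 to 8.56 CPM in sense. Most of that difference lay in Myh6, at a mean of 16.7 CPM in antisense and 0 in sense, whereas Tnni3 averaged 6.32 CPM in antisense and 7.25 CPM in sense and did not pass.

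Genes that share the genomic span of a channel gene include several with far larger differences. By RefSeq positions (GRCm38.p6), 25 of the 44 channel genes overlap at least 1 other gene and 19 overlap none. There are 56 overlapping genes, of which 30 had a row and 16 were tested. Of these 16, 8 were higher in antisense and none lower, a share of 50% beside 18.6% of all tested genes that overlap another gene. That second share also counts host genes, which differ in level. All of the 16 but Dcp1a lay under 20 CPM, where 23.8% of all genes tested were higher, against 8.89% at 20 CPM or more. The overlapping genes were taken up after their values had been seen, so the counts are a description. Of the 8 higher, 5 had no count in sense and had enough counts to be tested through antisense alone. These could only be called higher, so the share of 50% is not read as an excess. Whether counting used the strand is not given in the sources used here, so reads of a channel gene and of a gene on its opposite strand may not be told apart.

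Of the 8 higher genes, the one with the most counts was Lrtm1, a protein-coding gene of the leucine-rich repeat class, on chromosome 14 from 29018208 to 29033642, inside Cacna2d3 and on its opposite strand. Lrtm1 stood at 30.6, 31.2 and 28.8 CPM in antisense and 2.06, 3.27 and 2.40 CPM in sense. The groups lay far apart, with a log2 difference of 3.54 (SE 0.184; edgeR adjusted p = 6.91e-09), while the host Cacna2d3 averaged 82.7 CPM in antisense and 90.5 CPM in sense. Chdh, the choline dehydrogenase gene, reaches past Cacna1d on the opposite strand. It stood at 8.94, 8.73 and 11.5 CPM in antisense and 1.90, 0.623 and 0.685 CPM in sense (log2 fold change 3.16, SE 0.347; edgeR adjusted p = 6.82e-06), and Cacna1d did not pass.

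A further 5 had no count in any sense library, so their folds are lower bounds against a floor of 3 counts over the sense group. The lncRNA gene Gm43000, inside Cacna2d1 on the opposite strand, had 36, 53 and 43 counts in antisense and 0 in sense, at least 35.8-fold higher (edgeR adjusted p = 3.47e-06). Gm16183, an lncRNA gene inside Cacna1a, had 37, 32 and 47 counts in antisense and 0 in sense, at least 31.4-fold higher (edgeR adjusted p = 5.74e-06). Inside Cacnb2 lay the lncRNA gene Gm13269 (at least 32.0-fold higher) and the pseudogenes Gm13268 (at least 17.3-fold) and Gm13311 (at least 14.4-fold). All 8 passed whichever library was left out, and none of their 6 host channel genes passed.

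The 8 overlapping genes that did not pass were Gm18981, Dcp1b, Dcp1a, Lrtm2, Rpl19, Gm13315, A730060N03Rik and Gm11650. Where both strands are known, for 8 of the 16, the overlapping gene lay opposite to its host, and 4 of these were higher and 4 did not pass. Among channel genes that overlap no other gene, 12 were tested, with Cacna1f higher and Cacna1b lower and a median log2 fold change of -0.16; of all tested genes that overlap none, 10.2% were higher and 4.73% lower. Among the 24 tested that do overlap another, Cacna2d4 was higher and Scn8a lower, with a median of -0.15.

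**Figure D3:**
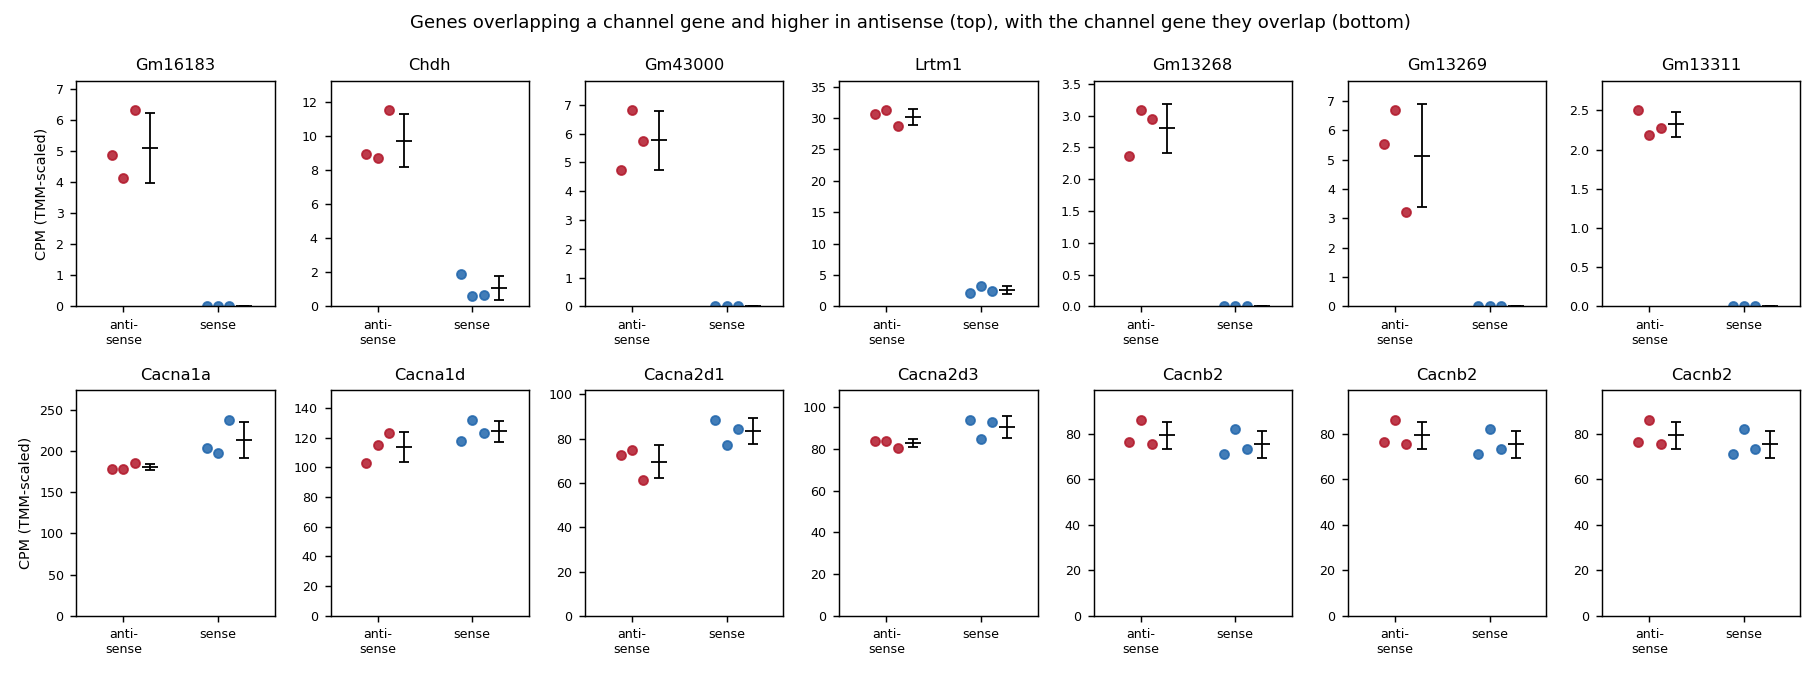
TMM-scaled CPM (y axes, each from 0) by library for 7 of the 8 overlapping genes that were higher in antisense (top) and the channel gene each overlaps (bottom, Cacnb2 shown for each of its 3 genes); points are the 3 antisense and 3 sense libraries and bars the mean and SD. The top genes lie far apart between groups, 5 of them at 0 in sense, while none of the host genes drawn passed.

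Genes that work with these channels mostly did not pass either. Of 80 such genes listed, 79 had a row and 66 were tested, with 2 higher, 6 lower and 58 not passing, beside 18.2% higher and 4.35% lower of all genes tested. Their median log2 fold change was -0.17, against -0.01 for all genes. Among 15 sodium channel partners, the ankyrin genes Ank3, which tethers sodium channels at the axon initial segment, and Ank2 were lower. Ank3 stood at 345, 384 and 311 CPM in antisense and 489, 389 and 463 CPM in sense (log2 fold change -0.37, SE 0.108; edgeR adjusted p = 0.0227), without overlap but with sense replicate 2 close to the antisense range. Ank2 showed a log2 difference of -0.34 (SE 0.109; edgeR adjusted p = 0.0372). Both calls were lost without antisense replicate 1 or 3 or sense replicate 1 or 3, and with library totals alone both values were above 0, at 0.36 for Ank3 and 0.39 for Ank2.

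Of the 17 calcium channel partners tested, Cabp4 was higher, and no other passed. Cabp4 encodes a calcium-binding protein that modulates the Cacna1f channel in photoreceptors. It stood at 2.76, 2.44 and 2.68 CPM in antisense and 0.158, 0.312 and 0.171 CPM in sense, far apart at 60 counts in antisense and 4 in sense (log2 fold change 3.50, SE 0.484; edgeR adjusted p = 5.2e-05). Like Cacna1f, Cabp4 had enough counts to be tested through antisense alone. Its span overlaps that of Gpr152, which was too low to test. Of 6 HCN channel partners tested, Flna, the filamin A gene, was lower (log2 fold change -0.35, SE 0.112; edgeR adjusted p = 0.0341), with overlapping groups and a value of 0.38 with library totals alone. The Flna call was lost without antisense replicate 1 or 3 or sense replicate 1 or 3.

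A list of other cation channel genes, which also holds accessory genes of the sodium leak channel NALCN, had 9 genes tested, of which 1 was higher and 1 lower. Hvcn1, the voltage-gated proton channel gene, stood at 1.45, 1.80 and 1.88 CPM in antisense and 0.316, 0.156 and 0.343 CPM in sense (log2 fold change 2.59, SE 0.495; edgeR adjusted p = 0.000980). Tmem28, one of the accessory genes and not itself a channel gene, stood at 1.58, 1.54 and 2.14 CPM in antisense and 3.79, 3.90 and 2.91 CPM in sense (-1.01, SE 0.324; edgeR adjusted p = 0.0359), but did not pass in DESeq2 (adjusted p = 0.179) or without antisense replicate 1 or 2 or sense replicate 1 or 2. The groups overlapped for neither Hvcn1 nor Tmem28. Hvcn1 rests on 39 counts in antisense and 5 in sense, and had enough counts to be tested through antisense alone. Its span overlaps that of Tctn1, which averaged 52.0 CPM in antisense and 52.5 CPM in sense and did not pass.

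Of 19 calcium release, store and pump genes tested, 2 calcium pump genes were lower. Atp2b2, a plasma membrane calcium pump gene, stood at 67.8, 63.3 and 63.1 CPM in antisense and 103, 77.1 and 90.6 CPM in sense. The groups did not overlap, and the log2 difference of -0.48 (SE 0.108; edgeR adjusted p = 0.00382) passed whichever library was left out, though with library totals alone it was 0.26. Atp2a2, the pump gene of the endoplasmic reticulum, had overlapping groups (-0.36, SE 0.124; edgeR adjusted p = 0.0484) and a value of 0.37 with library totals alone, and its call was lost without antisense replicate 2 or 3 or sense replicate 1 or 3.

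The direction of the small differences rests on how libraries are scaled. Counts of all channel genes together made up 2052, 2018 and 1923 CPM of total counts in antisense and 1078, 1661 and 1395 in sense. With Gas5 left out of the totals they made up 2272, 2352 and 2157 CPM in antisense and 2513, 2467 and 2590 in sense. The order of the groups is therefore opposite on these scales, without overlap on either. With library totals alone Cacna1f and Cacna2d4 were still higher in antisense (log2 fold changes of 3.63 and 1.91), as they were with Gas5 left out of the table (2.92 and 1.24).

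**Figure D4:**
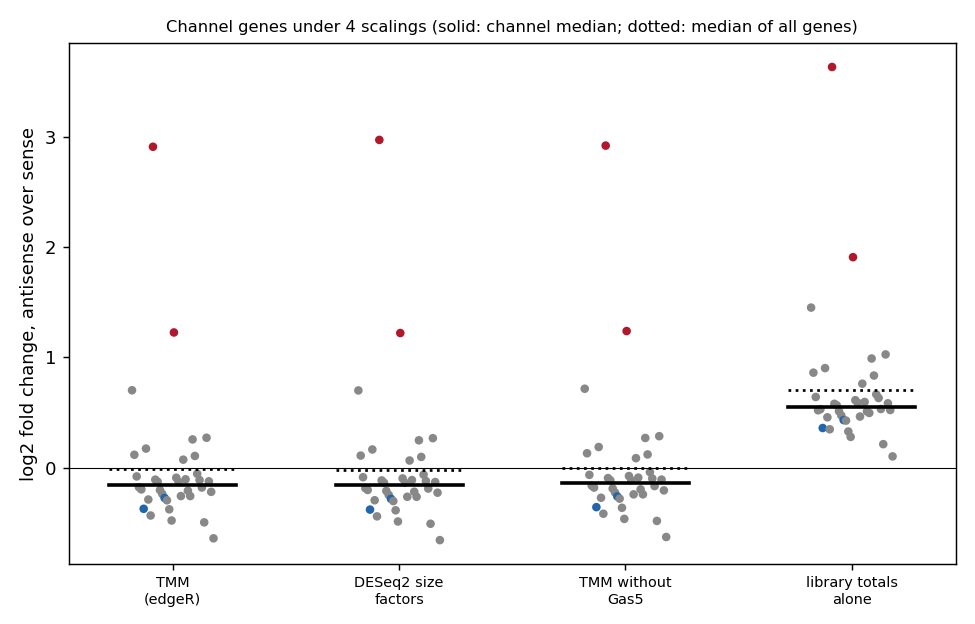
Log2 fold change, antisense over sense (y axis), of the 36 tested channel genes under 4 scalings (x axis); points are genes, red for the 2 higher and blue for the 2 lower on the TMM scale, solid lines the channel median and dotted lines the median of all genes. The channel median is -0.15 with TMM and 0.55 with library totals alone, below the all-gene median of -0.01 and 0.70, and Cacna1f and Cacna2d4 stay above 0 throughout.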

How the data were processed

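Total RNA was sequenced in 3 antisense and 3 sense libraries. Per the submitters' processing notes, Salmon, DESeq and the GRCm38 build were used, with versions and strand setting not given in the sources used here. The table the authors deposited holds estimated counts per gene symbol, which were rounded to whole numbers. The authors' deposited comparison lists, for each gene, p-values, a test score, the log2 fold change of sense over antisense and a normalised mean signal. Small RNA libraries were not used.

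Genes were kept with filterByExpr (minimum count 10) and scaled by TMM. A gene can pass this filter through 1 group alone. Cacna1f, Cabp4, Hvcn1 and the overlapping genes without a sense count passed it through antisense. Antisense was compared with sense by edgeR's two-sided quasi-likelihood F test (edgeR 4.0.16 in R 4.3.3), adjusted by Benjamini-Hochberg over all 20049 genes tested of 49489, at a false discovery rate of 0.05. The SE is the absolute log2 fold change over the square root of F. Errors of means are SDs over 3 libraries. Lower bounds use a floor of 3 counts over the group, which covers counting error only. Alternatives were DESeq2 1.42.0, library totals alone, Gas5 left out, a minimum count of 50, no filter beyond 1 count, a replicate block, each library left out, and only genes that overlap no other gene. The level split at 20 CPM was chosen after the data were seen.

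Positions came from a RefSeq table of GRCm38.p6, in which 44 of 44 channel genes matched, and strands from its promoter table (32 of 44). Members and gene lists were chosen with earlier results of these data known. Full values are given for channel genes that passed, whose groups did not overlap, or with the highest mean CPM of their subfamily, and for companion genes that passed. Some channel genes are counted but not reported one by one here. On simulated counts of 20049 genes, the test recovered 36.6% of genes changed 1.5-fold, 76.1% at 2-fold and 100% at 4-fold. There 71, 71 and 58 genes were changed at these folds, and every gene was given the same spread. In the data 4531 genes passed and genes differ in spread, so these shares may not hold for them. Libraries of a group differed by more than sampling noise, so none was counted as a duplicate. Same-numbered libraries did not deviate together (r of -0.0585 to 0.0512), so the numbers were not taken as pairs.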

Additional observations from a re-analysis of the deposited data

How the results depend on the processing

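With library totals alone, 16 channel genes were higher and 0 lower and their median log2 fold change was 0.55, 34 companion genes were higher and 0 lower, and 12804 of all genes were higher and 62 lower. Among the channel and companion genes given with full values, the sign turned under that scaling alone for Cacna1a (0.47), Cacna1b (0.43), Cacna1e (0.51), Cacna1g (0.33), Cacna1h (0.43), Cacna1i (0.28), Cacna2d1 (0.46), Cacna2d3 (0.59), Cacng5 (0.21), Scn2a (0.53), Scn8a (0.36), Ank2 (0.39), Ank3 (0.36), Atp2a2 (0.37), Atp2b2 (0.26) and Flna (0.38). The signs of the other genes are not listed here. At a minimum count of 50, which leaves Cacna1f untested, 1 channel gene was higher and 1 lower, 0 companion genes were higher and 1 lower, and 1795 of all genes were higher and 402 lower. Leaving Gas5 out left 1 channel gene lower. With no filter beyond 1 count, 10 companion genes were lower. Counting only genes that overlap no other gene left 1 channel gene higher and 1 lower, and 0 companion genes higher and 3 lower. At 20 CPM or more 0 channel genes were higher. The replicate block, with numbers that do not pair the libraries, left 1 channel gene lower, Scn8a, with Cacna1b at an adjusted p of 0.0754. Leaving out each library in turn gave 0 to 3 lower channel genes (0 without antisense replicate 1 or sense replicate 3), 1 to 10 lower companion genes and 492 to 1100 lower genes in all, and 2 higher channel genes each time. The cause of these shifts was not tested. In the simulation differences of 1.5-fold were often missed, at settings unlike those of the data, so the share missed here is not known. With 3 libraries a group, a gene that did not pass is not shown to be equal.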
